A study of Mus musculus with 18 samples.

Results

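The genes described here are 7 paralogs that carry or mark membrane cargo on microtubules, out of 23420 rows in each of 3 deposited tables of embryonic mouse lung. They comprise 4 genes known for their expression in neurons, Rab6b, Kif5a, Kif5c and Kif1a, and 3 ubiquitous paralogs, Rab6a, Kif5b and Kif1b. The set was picked because Rab6b, Kif5a and Kif5c were higher in lungs that lost Wnt5a from the mesenchyme. The values of all 7 genes in that comparison are therefore a description without p-values, and nothing is read from tests of them there. All 7 genes passed the filter on low values in all 3 tables.

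Rab6 proteins are small GTPases on Golgi and secretory vesicle membranes that recruit motors and tethers. Kif5a, Kif5b and Kif5c encode the heavy chains of kinesin-1, the motor that moves vesicles, organelles and RNA granules toward microtubule plus ends, and Kif1a and Kif1b encode kinesin-3 motors, known for carrying synaptic vesicle precursors along axons. In each family one or more copies are enriched in neurons while another is made in most cells. The lung is innervated early in development by neurons of neural crest origin that settle beside the airways, so a whole lung holds neurons among far more numerous epithelial and mesenchymal cells.

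Bulk RNA-Seq had been carried out on whole embryonic lungs to find what loss of the planar cell polarity ligand Wnt5a or of its membrane components Vangl1 and Vangl2 changes. At E12.5dpc (days post coitus), 3 Wnt5af/f; Dermo1Cre libraries (Dermo1 mutants) were set against 3 Wnt5af/+; Dermo1Cre libraries (Dermo1 controls), and 3 Vangl1-/-; Vangl2-/- libraries (Vangl mutants) against 3 Vangl1-/- libraries (Vangl controls). At E13.5dpc, 3 Wnt5af/f; Sox9Cre libraries (Sox9 mutants) were set against 3 Wnt5af/+; Sox9Cre libraries (Sox9 controls). Cre was expressed from the Dermo1 (Twist2) locus in mesenchyme and from Sox9 in epithelium, and the Wnt5a controls carry Cre and 1 floxed allele. All Vangl lungs, controls included, lack Vangl1 activity through a gene trap. The number of embryos behind a library was not stated, so the p-values measure the spread between these libraries, which may be technical. In whole lungs, fewer cells of a type and less RNA per cell cannot be told apart.

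Each library held between 15945393 and 19814346 reads on genes. Wnt5a stood at 472, 429.6 and 489 normalized counts (reads divided by a size factor per library) in the Dermo1 controls and at 317, 436 and 229.7 in the mutants, a log2 fold change of -0.55 ± 0.19 (SE) with an adjusted p of 0.406 by limma, and mutant 2 lay within the controls. In the Sox9 experiment Wnt5a differed by -0.12 ± 0.10 on the log2 scale (limma, adjusted p = 0.9999). Vangl2 fell from 277, 406 and 334 normalized counts in the Vangl controls to 86.5, 79.8 and 89.6 in the mutants (limma, adjusted p = 0.0318). The part of each gene that Cre removes was not given in the sources used here. Reads on the gene-trapped Vangl1 remained, at 162, 219 and 113 normalized counts in the Vangl controls and 239, 274 and 242 in the mutants. Some libraries stood apart from their labels on the first principal component. Vangl control 2 lay with the Vangl mutants and Sox9 mutant 1 lay with the Sox9 controls. The values of the 7 genes and the counts of calls that rest on these libraries are therefore also given without them. In the Dermo1 experiment the groups overlapped on that component, with controls at 26.5, -2.05 and -28.1 and mutants at 7.21, -15.8 and 12.3. The lung was represented as labelled, with the epithelial gene Nkx2-1 at 2332 to 2884 and the mesenchymal gene Tbx4 at 3005 to 3314 normalized counts across the Dermo1 libraries.

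The sequences of the Rab6 pair and of the 2 neuronal Kif5 genes are shown first, because the comparison of neuronal with ubiquitous copies rests on reads being assigned to the right paralog. In GENCODE M21 (mm10), Rab6b lies at chr9:103111787-103185276 on the plus strand, Rab6a at chr7:100607410-100641268 (plus), Kif5a at chr10:127225696-127263348 (minus), Kif5c at chr2:49619298-49774778 (plus), Kif1a at chr1:93015464-93101951 (minus) and Kif1b at chr4:149176319-149307693 (minus). The coding sequences of Rab6b and Rab6a are both 627 bases long, encode 208 residues and differ at 135 positions (78.5% identical). Their last 90 coding bases, positions 538 to 627 from the start codon, cover the variable tail of the protein and are printed with the 21 differing bases in capitals.
Rab6b: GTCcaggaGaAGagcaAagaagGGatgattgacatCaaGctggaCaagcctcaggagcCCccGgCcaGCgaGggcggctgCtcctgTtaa
Rab6a: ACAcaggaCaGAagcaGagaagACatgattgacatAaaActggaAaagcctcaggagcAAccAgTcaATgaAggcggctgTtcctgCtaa

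Kif5a and Kif5c were 73.8% identical over their aligned coding bases, and the first gap-free 90 bases, near the start of the motor domain, differ at 16 positions, shown in capitals. They are coding bases 18 to 107 of Kif5a and 15 to 104 of Kif5c.
Kif5a: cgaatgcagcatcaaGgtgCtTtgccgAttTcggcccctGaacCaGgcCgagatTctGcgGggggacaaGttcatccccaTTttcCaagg
Kif5c: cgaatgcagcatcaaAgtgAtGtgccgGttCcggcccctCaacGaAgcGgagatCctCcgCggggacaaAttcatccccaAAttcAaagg

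No stretch of 50 bases in the transcripts of any of the 7 genes occurred in the transcripts of another of the 7, and the longest identical run between aligned coding sequences was 33 bases, between Kif1a and Kif1b. For Rab6b, Kif5a and Kif5c, 0 stretches of 50 bases occurred in the annotated transcripts of any other gene on either strand. Rab6a shared the most in the set: 19.0% of its distinct 50-base stretches were shared with other genes, 659 of 3716 with its neighbour Mrpl48, so its reads are less certainly its own. Kif5b shared 3.90% of its stretches with other genes, Kif1b 0.220% and Kif1a 0.0518%. Each neuronal copy was richer in coding GC than its ubiquitous paralog, a trait that had no part in choosing them. The contents were 53.9% (Rab6b), 55.2% (Kif5a), 51.2% (Kif5c) and 56.6% (Kif1a) against 44.7% (Rab6a), 43.5% (Kif5b) and 50.4% (Kif1b). Kif5c lay close to Kif1b, and the coding GC of all genes was not computed for comparison.

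RefSeq promoter windows (GRCm38.p6) matched 5 of the 7 genes. The 250 bases before the Kif5c start, chr2:49619036-49619285 on the plus strand, are shown because Kif5c moved with the other neuronal genes across libraries and its window lies outside the annotated Kif5c gene (overlap with other genes was not checked). It holds 1 copy of TGACGTCA (a palindrome, the cyclic AMP response element), in capitals, whose first base lies 26 bases before the start.
Kif5c: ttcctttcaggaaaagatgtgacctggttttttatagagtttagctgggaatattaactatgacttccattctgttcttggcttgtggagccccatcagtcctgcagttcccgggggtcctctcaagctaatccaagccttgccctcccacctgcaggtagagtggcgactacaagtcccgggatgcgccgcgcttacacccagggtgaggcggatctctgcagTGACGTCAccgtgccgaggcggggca

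Of all 32851 windows of this length, 1.55% held TGACGTCA, and none of the other windows of the 5 genes did. This motif was one of 7 searched on both strands. GGGCGG (32.7% of windows) was in those of Rab6b and Kif1b, CCAAT (33.8%) in those of Rab6a and Kif1b, CAGCTG (13.001%) in those of Rab6b, Rab6a and Kif1a, and TATAAA (12.4%) in that of Kif5c. TTCAGCACC (0.301%), the left part of the element bound by the repressor of neuronal genes Rest, and the right part of that element (0.0974%) were in none of them. The windows of Rab6b and of Kif1a at chr1:93082481-93082730 lay wholly inside the annotated gene. Of the 250 bases, 176 of the Rab6a window and 77 of the Kif1a window at chr1:93101875-93102124 did too. Presence or absence of a motif there is therefore not wholly about sequence upstream of the gene. A match is a description of the letters and not of a bound site.

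In the Dermo1 experiment the neuronal genes were higher in every mutant library than in any control. Rab6b, the neuronal Rab6 isoform, stood at 113, 105 and 142 normalized counts in the controls and at 270.3, 378 and 354 in the mutants. The group means were 120.1 ± 19.1 and 334 ± 56.7 (SD, n = 3 each), a 2.78-fold ratio of means and a log2 fold change of 1.47 ± 0.15 (SE). The groups were far apart, and mutant 1 was the lowest of the mutants.

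Kif5a, a neuronal kinesin-1 heavy chain, gave 97.2, 73.3 and 92.1 normalized counts in the controls and 165, 331 and 374 in the mutants. The means were 87.5 ± 12.6 and 290.4 ± 110.4 (SD, n = 3), a 3.32-fold ratio and a log2 fold change of 1.64 ± 0.27 (SE). Mutant 1 was again the lowest mutant and lay above every control.

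Kif5c is the other neuronal kinesin-1 heavy chain, and its mutant 1 was again the lowest mutant. Its normalized counts were 93.2, 111 and 116 in the controls and 209, 315 and 367 in the mutants, with a log2 fold change of 1.43 ± 0.19 (SE). Kif1a, the axonal kinesin-3, moved least of the neuronal genes, from 386, 388 and 439.9 in the controls to 464, 617 and 680.03 in the mutants, a 1.45-fold ratio of means and a log2 fold change of 0.52 ± 0.13 (SE). Its mutant 1 lay just above the highest control.

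The ubiquitous paralogs stayed within narrow limits in the same libraries. Rab6a stood at 2879.96, 2963 and 2851 normalized counts in the Dermo1 controls and at 2937, 2978 and 2862 in the mutants, a log2 fold change of 0.01 ± 0.04 (SE), and the groups overlapped. Kif5b, the kinesin-1 heavy chain of most cells, differed by 0.07 ± 0.05, with 4437, 4200.3 and 4492 in the controls and 4869.6, 4398 and 4523 in the mutants, and the groups overlapped. Kif1b, the broadly expressed kinesin-3, was higher in every mutant library by a small amount, at 2954, 2794 and 2836 against 3156, 3032 and 3079, a log2 fold change of 0.11 ± 0.04. Removing each library's trend of level on exon length brought that Kif1b value to 0.0036.

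**Figure D1:**
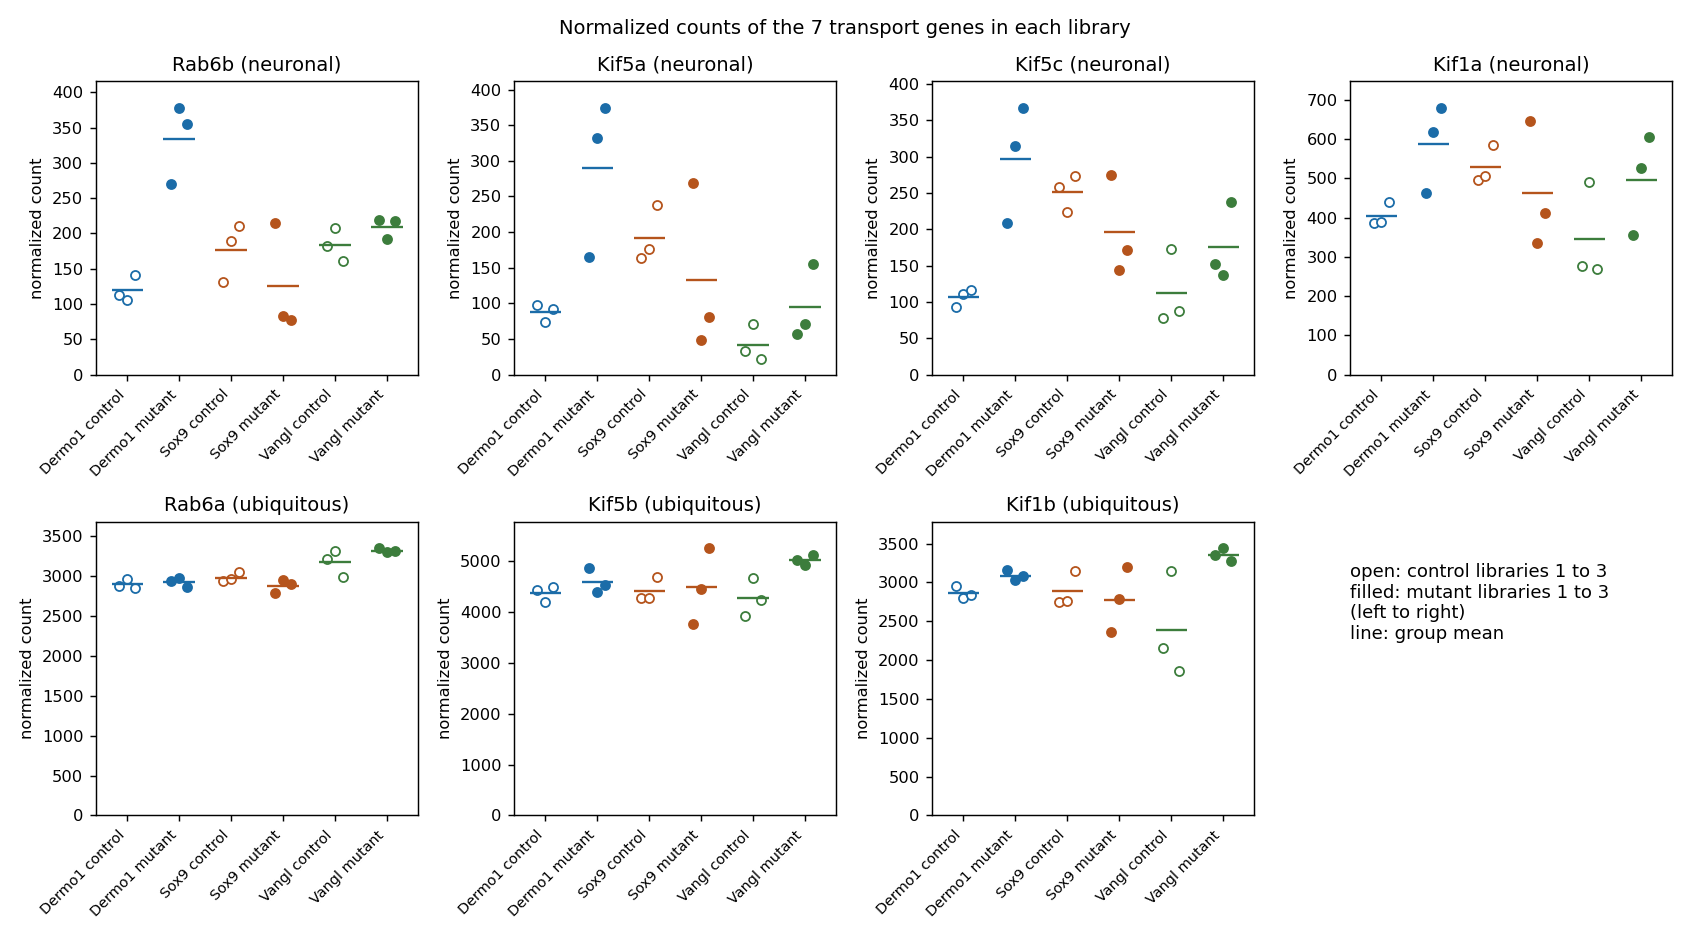
Normalized counts (linear axes from 0) of each of the 7 genes in the 18 libraries, with open circles for controls, filled circles for mutants and a line at each group mean. The 4 neuronal genes separate the Dermo1 groups, while for these genes Sox9 mutant 1 sits at or above the highest control and the other Sox9 mutants sit below every control.

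Across the table, 7.65% of 14277 genes had every Dermo1 mutant above every control, as did 5 of the 7 genes here, the 4 neuronal genes and Kif1b, and 7.92% had every mutant below every control, as did 0 of the 7. By limma, 0.0140% of genes were called at an adjusted p under 0.05, that is Rab6b and the lower Fmod, and by DESeq2 0.700% were, among them all 4 neuronal genes and none of the ubiquitous ones. Without Dermo1 mutant 1 limma called 0.367% of genes, among them 4 of the 7. Since the genes were chosen on this contrast, nothing is read from these counts.

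Ratios within a library do not depend on its size factor beyond the pseudocount. Per kb of exon, the level of Rab6b was 2.68%, 2.43% and 3.39% of that of Rab6a in the 3 Dermo1 controls, against 6.27%, 8.66% and 8.45% in the mutants. Kif5a had 1.89%, 1.51% and 1.77% of the Kif5b level in the controls against 2.93%, 6.503% and 7.15% in the mutants, and Kif5c had 1.85%, 2.33% and 2.27% against 3.77%, 6.29% and 7.15%. For these 3 pairs the groups did not overlap. The Kif1a share of Kif1b was 22.6%, 24.0% and 26.8% in the controls and 25.4%, 35.2% and 38.2% in the mutants, which overlapped. The mean log2 level of the neuronal genes minus that of the ubiquitous genes was 1.20 higher in the mutants. In the Dermo1 mutants the neuronal copies of Rab6 and Kif5 reached at most 8.66% of their paralogs per kb.

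**Figure D2:**
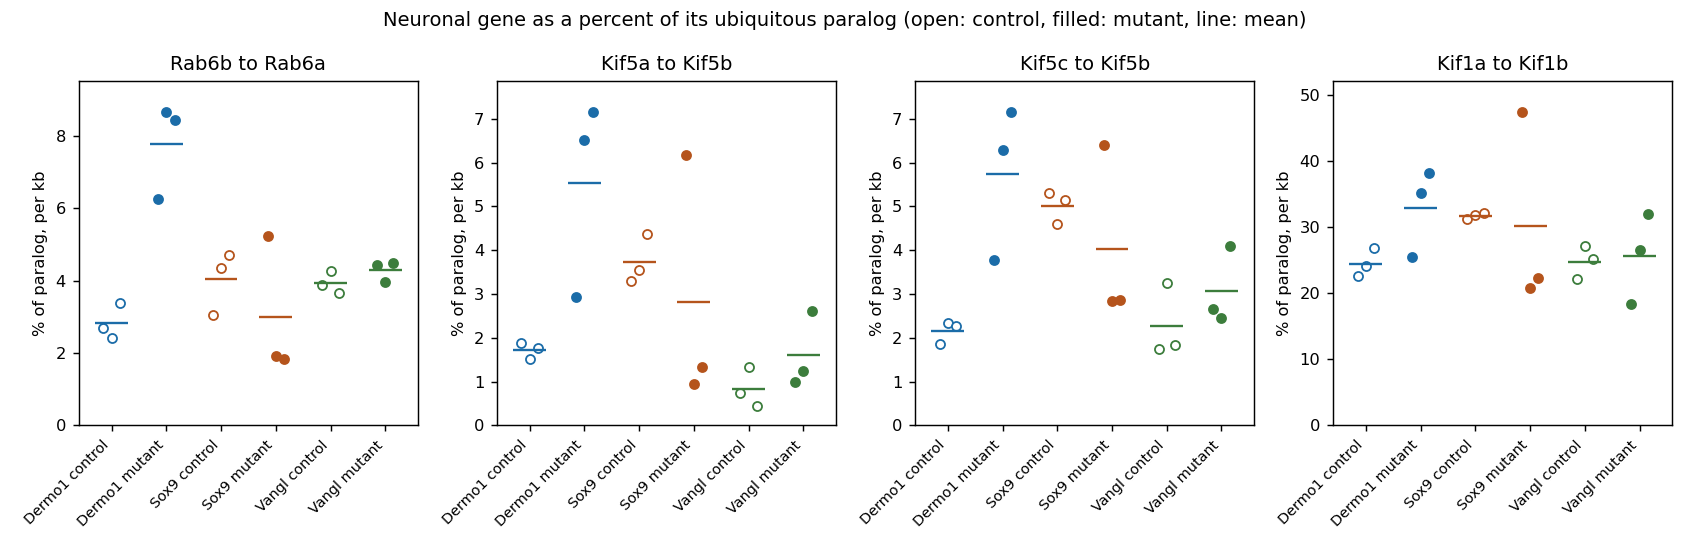
Level of each neuronal gene as a percent of its ubiquitous paralog, both per kb of exon, in each of the 18 libraries (open, control; filled, mutant; line, group mean; linear axes from 0). Rab6b to Rab6a averaged 2.83% in the Dermo1 controls and 7.79% in the Dermo1 mutants.

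The order of levels per kb was the same for the ubiquitous genes in all 6 groups: Rab6a, then Kif5b, then Kif1b. In the Dermo1 controls they stood at 845 ± 16.9, 726 ± 25.7 and 191 ± 5.54 normalized counts per kb (SD, n = 3), followed by Kif1a at 46.7 ± 3.52, Rab6b at 23.9 ± 3.80, Kif5c at 15.6 ± 1.76 and Kif5a at 12.52 ± 1.80. Kif5c and Kif5a overlapped there and each other neighbour was apart. In the Dermo1 mutants Kif1a at 67.7 ± 12.8 and Rab6b at 66.4 ± 11.3 per kb overlapped, as did Kif5c at 43.3 ± 11.8 and Kif5a at 41.6 ± 15.8. Rab6a and Kif5b were apart in 5 of the 6 groups and overlapped in the Sox9 mutants. Within the Sox9 controls Kif5c and Rab6b overlapped, at 36.8 ± 3.69 and 35.2 ± 8.09 per kb, and in the Vangl controls Kif1a and Rab6b did, at 39.9 ± 14.6 and 36.5 ± 4.68.

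In the Sox9 experiment, in which Wnt5a was targeted in the epithelium, none of the 7 genes differed beyond the spread between libraries. Rab6b stood at 132, 189 and 210.5 normalized counts in the controls and at 215, 82.5 and 77.9 in the mutants. Kif5a gave 164, 176 and 237 in the controls and 269, 48.3 and 81.0 in the mutants. In both genes mutant 1 was above every control and mutants 2 and 3 were below every control, so the groups overlapped. Each of the 7 genes overlapped between the Sox9 groups, while 4.42% of genes had every mutant above every control and 4.36% every mutant below.

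Kif5c, at 259, 224 and 273 in the Sox9 controls and 274, 144 and 171 in the mutants, and Kif1a, at 496, 507 and 585 against 645, 335 and 411, followed the same pattern. The log2 fold changes were -0.64 ± 0.37 for Rab6b, -0.89 ± 0.52 for Kif5a, -0.41 ± 0.21 for Kif5c and -0.24 ± 0.21 for Kif1a (SE). Rab6a, Kif5b and Kif1b differed by -0.05, 0.01 and -0.06. The adjusted p of all 7 genes was 0.9999 by limma, which called 0 of 14293 genes (0%), and 0 of the 7 had an unadjusted p under 0.05 (1.08% of all genes did with mutants higher and 2.81% with mutants lower). By edgeR and DESeq2 0 of the 7 were called as well, against 0% and 0.0630% of genes. Neuronal minus ubiquitous levels differed by -0.51 on the log2 scale (two-sided exact permutation test, p = 0.4, where 3 against 3 cannot go below 0.1). That difference was -1.02 without mutant 1 and -0.21 without mutant 2.

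Without Sox9 mutant 1, the log2 fold changes were -1.11 for Rab6b, -1.59 for Kif5a, -0.68 for Kif5c and -0.51 for Kif1a, with limma adjusted p of 0.103, 0.0634, 0.126 and 0.162. None of the 7 was called in that fit, in which 0.0919% of genes were. The Sox9 lungs were a day older than the Dermo1 lungs, and stage and Cre driver cannot be told apart between these experiments. Whether the Dermo1 and Sox9 differences differ from each other was not tested.

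**Figure D3:**
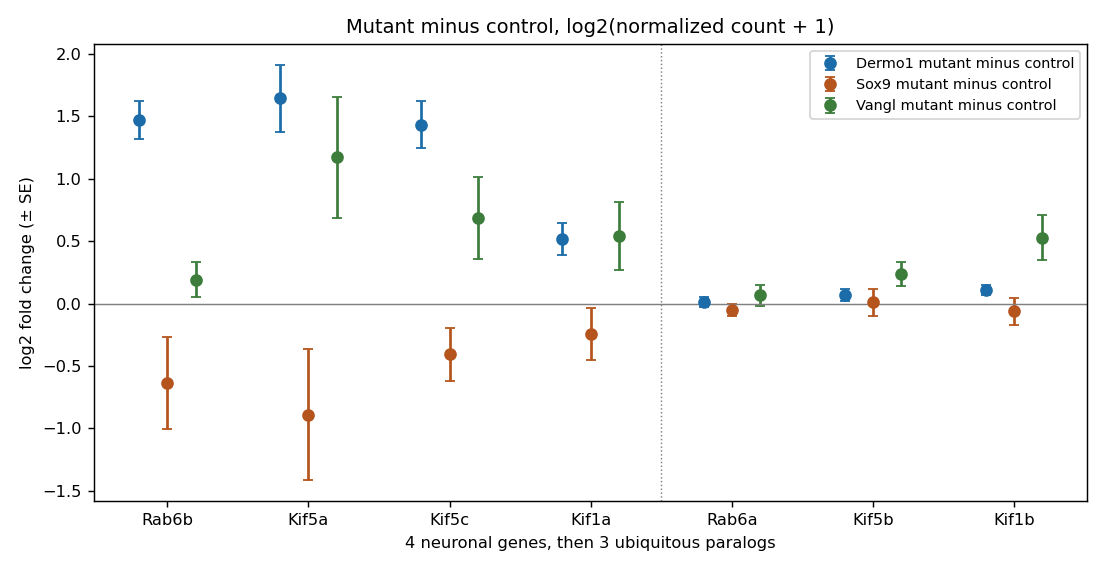
Log2 fold change of each gene, mutant minus control, from limma on log2(normalized count + 1), with bars of 1 SE (3 libraries a group). The neuronal genes lie between 0.52 and 1.64 in the Dermo1 experiment and between -0.89 and -0.24 in the Sox9 experiment, and the 3 ubiquitous genes lie between -0.06 and 0.11 in both.

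In the Vangl experiment the 2 genes whose groups did not overlap, Kif1b and Kif5b, were ubiquitous. Kif1b stood at 2153, 3142 and 1861 normalized counts in the controls and at 3351, 3438 and 3278 in the mutants, and Kif5b at 3918, 4666 and 4229 against 5015, 4925 and 5124. In both genes control 2 was the highest control. Their log2 fold changes were 0.53 ± 0.18 and 0.24 ± 0.10 (SE), with limma adjusted p of 0.233 and 0.235, and every mutant above every control, as for 13.6% of 14303 genes, while 8.68% of genes and 0 of the 7 had every mutant below every control (two-sided exact permutation p = 0.1, the smallest possible). Rab6a differed by 0.07 ± 0.09 (limma, adjusted p = 0.651).

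The neuronal genes overlapped between the Vangl groups. Kif5a gave 33.0, 71.8 and 22.1 normalized counts in the controls and 57.4, 70.9 and 155 in the mutants, a log2 fold change of 1.17 ± 0.49 (limma, adjusted p = 0.239). Kif5c gave 77.5, 172 and 88.3 against 152, 137 and 238, a log2 fold change of 0.69 ± 0.33, and Kif1a gave 276, 492 and 270.1 against 356, 526 and 607, a log2 fold change of 0.54 ± 0.27 (SE, limma adjusted p = 0.265 and 0.278). Rab6b was the steadiest of the neuronal genes, with 183, 208 and 161 in the controls, 218, 192 and 218 in the mutants and a log2 fold change of 0.19 ± 0.14 (limma, adjusted p = 0.427).

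None of the 7 was called in the Vangl experiment by limma, edgeR or DESeq2, where 0.00699%, 0.00699% and 0.140% of genes were, and Kif5a, Kif5b and Kif1b had an unadjusted p under 0.05 with mutants higher, as did 12.0% of genes. With mutants lower 8.56% of genes and 0 of the 7 did. The neuronal minus ubiquitous difference was 0.37 on the log2 scale (two-sided exact permutation test, p = 0.3), and leaving out each library moved it between 0.16 (without mutant 3) and 0.56 (without control 2). Without Vangl control 2, limma called 6180 genes, 43.6% of those tested, and with them Kif1a, Kif1b, Kif5a, Kif5b and Kif5c, at log2 fold changes of 0.83, 0.74, 1.63, 0.30 and 1.04. Removing each library's trend of level on exon length brought Kif1b, which at 14983 exon bases is the longest of the set, from 0.53 to -0.13 and Kif5b from 0.24 to -0.01, and it brought Kif5a from 1.17 to 0.86, Kif5c from 0.69 to 0.38, Kif1a from 0.54 to 0.13 and Rab6b from 0.19 to 0.031.

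Neuron markers had the same direction as the neuronal genes in each experiment, with a median log2 fold change of 1.29, -0.64 and 0.59 in the Dermo1, Sox9 and Vangl experiments. Of a list of 30 neuron genes 29 were tested, and their summed level was 6206, 6202 and 6766 normalized counts in the Dermo1 controls and 7721, 11018 and 11382 in the mutants. All 29 had a log2 fold change above 0 with a median over all genes of 0.000706, and 24 had an unadjusted p under 0.05 with mutants higher (5.42% of all genes did), while 0 of the 29 and 4.76% of all genes had one with mutants lower. By limma and edgeR 0 of the 29 were called and by DESeq2 14 were, with mutants higher (0.539% of genes). Without Dermo1 mutant 1, the lowest Dermo1 mutant in this sum too, limma called 15 of the 29 (0.367% of all genes). With all libraries limma called 0 of the 29 in the Sox9 experiment, and 9 without mutant 1 (0.0919% of genes), and in the Vangl experiment 0 and 14 without control 2 (43.6% of genes).

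Among the named markers, Tubb3, the neuronal beta-tubulin, stood at 68.1, 74.3 and 169 normalized counts in the Dermo1 controls and at 207, 534 and 623 in the mutants (log2 fold change 2.10 ± 0.43, limma adjusted p = 0.189). Prph, the intermediate filament peripherin of peripheral neurons, gave 43.1, 28.1 and 71.3 against 125, 380.1 and 456 (2.63 ± 0.46, limma adjusted p = 0.162). Every mutant exceeded every control for these 2 genes, and likewise for the RNA-binding protein gene Elavl4 (1.17 ± 0.19) and for Stmn2 (1.29 ± 0.27), which encodes a microtubule regulator of growing axons.

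Relative to the mean log2 level of the 29 markers, the groups overlapped for the neuronal Rab6 and Kif5 genes in the Dermo1 experiment. The difference between mutants and controls after subtracting that mean was 0.18 for Rab6b, 0.36 for Kif5a and 0.15 for Kif5c, while Kif1a was lower by this measure at -0.77 and the ubiquitous genes were at -1.27 (Rab6a), -1.22 (Kif5b) and -1.17 (Kif1b), with every mutant below every control. In the Sox9 experiment the marker mean differed by -0.67 and in the Vangl experiment by 0.55, with overlap in both. Sox9 mutant 1 had a marker mean of 7.49, above the controls at 7.25, 7.11 and 7.47, as for the neuronal genes. The marker sums were 8637, 8422 and 9615 in the Sox9 controls and 9347, 6378 and 6578 in the mutants. Mutants 2 and 3 were below every control in this sum, as for the neuronal genes, while mutant 1 lay within the controls. The part of the neuron content in the differences of Rab6b, Kif5a, Kif5c and Kif1a was not tested.

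**Figure D4:**
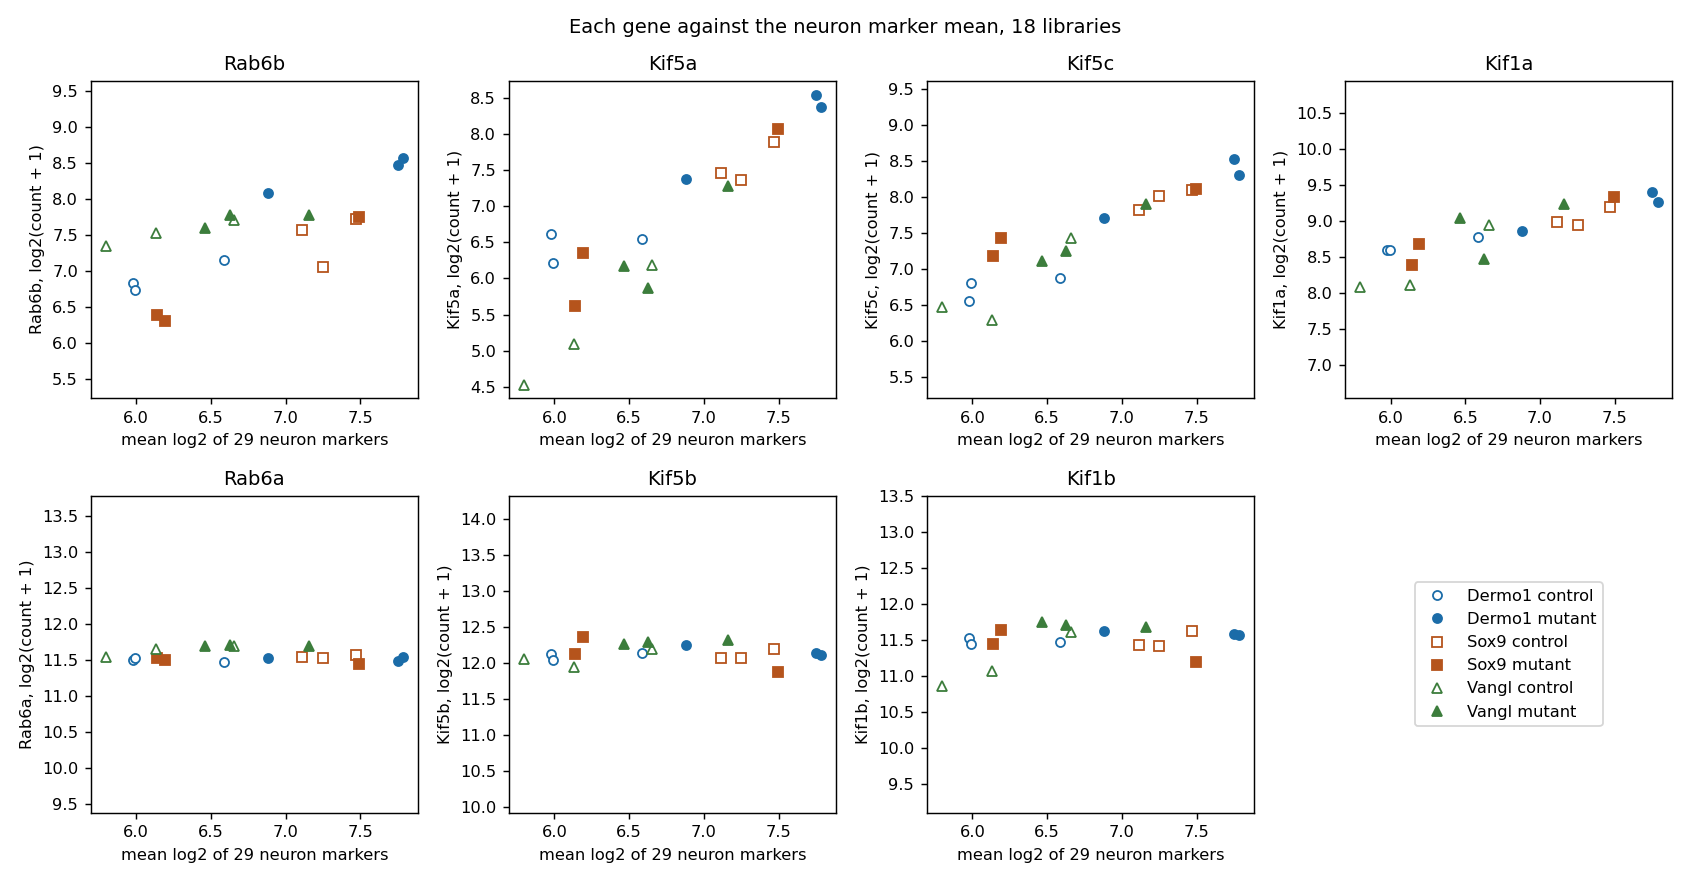
Level of each gene, log2(normalized count + 1), against the mean log2 level of 29 neuron markers in the same library, for the 18 libraries (open, control; filled, mutant; all panels span the same range of log2 units). Rab6b, Kif5a and Kif5c are higher in libraries with more neuron marker RNA, while Rab6a and Kif5b are nearly level across the axis and Kif1b is low in Vangl controls 1 and 3.

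Other cell types were gauged from lists in the same way. Of 9 tested glial genes 0 were called by limma in any experiment, and the median log2 fold change was 0.25 in the Dermo1, -0.38 in the Sox9 and 0.20 in the Vangl experiment. Neuroendocrine genes summed to 200.4 to 284 normalized counts in the Dermo1 controls and 247 to 399 in the mutants, and Nkx2-2 of that list was at 0 in 5 of the 6 Dermo1 libraries. Cardiomyocyte genes, which can enter with heart tissue at dissection, summed to between 599 and 17422 in the Dermo1 controls and between 626 and 2882 in the mutants, and to 4263 to 15847 against 555 to 4525 in the Sox9 experiment. All 12 tested had a log2 fold change below 0 in the Sox9 experiment, 10 with an unadjusted p under 0.05 by limma (2.81% of all genes with mutants lower). All 11 tested were below 0 in the Dermo1 experiment, 0 with such a p. In the Vangl experiment 4 were above 0 and 6 below, with sums of 1321 to 3939 against 472 to 6153. By limma 0 were called in any experiment. Epithelial genes summed to 19748 to 21409 in the Dermo1 controls and 18937 to 19400 in the mutants, and mesenchymal genes to 89102 to 102367 against 79602 to 88404, and the part of these in the results was not tested.

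Across the 18 libraries, centred on the mean of each table, Rab6b correlated with Kif5a at r = 0.84, with Kif5c at 0.83 and with Kif1a at 0.71, and Kif5a with Kif1a at 0.94 (Pearson, n = 18). Rab6b correlated with Rab6a at 0.16, with Kif5b at -0.07 and with Kif1b at 0.13, while Kif5b and Kif1b correlated with each other at 0.82. The libraries share tissue and table, so these values are a description. Centred on each group of 3, which removes the difference between mutants and controls, Rab6b had r = 0.78 with Kif5a, 0.61 with Kif5c and 0.67 with Kif1a. Within groups Rab6b varied most in the Sox9 mutants, at 215, 82.5 and 77.9 normalized counts, as did Kif5a at 269, 48.3 and 81.0. These correlations and the nearest genes below were not computed without Sox9 mutant 1, so that library may carry much of them.

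The genes most like Rab6b in this sense, among 13977 tested in all 3 tables, were Dner (r = 0.95), Syt4 (0.95), Snap25 (0.95), Gng3 (0.94) and Tubb3 (0.94). L1cam (0.97), Scn9a (0.97) and Mapk10 (0.96) were nearest to Kif5a, Mapk10 (0.97), Elavl2 (0.96) and Elavl4 (0.95) to Kif5c, and L1cam (0.95), Trim67 (0.94) and Akap6 (0.92) to Kif1a. Centred on each group, the nearest to Rab6b were Tubg2 (0.94), Unc13a (0.93), Ap3b2 (0.92), Dner (0.91) and Soga3 (0.90). L1cam, a cell adhesion molecule of axons, came first for Kif5a (0.97) and Kif1a (0.95). Mapt (0.94) and Scn9a (0.94) came next for Kif5a, Vat1l (0.93) was among the 3 nearest to Kif1a, and Kif5c had Mapk10 (0.94), L1cam (0.93) and Elavl2 (0.91). Of the 13977 genes 29 were on the neuron list. Centred on each group, 13 of the 50 genes nearest to Rab6b were on that list, 12 for Kif5a, 6 for Kif5c and 7 for Kif1a. Centred on each table, which keeps the Dermo1 difference used to pick the genes, the counts were 15, 13, 13 and 9. They were 0 for Rab6a, Kif5b and Kif1b by either centring.

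No gene of the 5 lists of motor partners was called in any experiment by limma, edgeR or DESeq2 with all libraries. Without Vangl control 2, where 43.6% of all genes were called, limma called 9 of 17 kinesin-1 adaptors, 10 of 18 Rab6 regulators and effectors, 5 of 13 kinesin-3 genes, 9 of 14 other kinesins and 13 of 22 dynein and dynactin genes, and without Dermo1 mutant 1 it called 1 kinesin-1 adaptor. The background at an unadjusted p under 0.05 is that given above for each experiment. Of 17 kinesin-1 light chains and cargo adaptors, 5 had an unadjusted p under 0.05 in the Dermo1 experiment with mutants higher and 0 with mutants lower (median log2 fold change 0.10). Klc1, a kinesin light chain, differed by 0.11 ± 0.05 (limma, adjusted p = 0.477) and Kidins220, an adaptor that binds kinesin-1, by 0.22 ± 0.05 (adjusted p = 0.239). Mapk8ip2, a scaffold that links kinesin-1 to JNK, gave 27.1, 31.1 and 36.7 normalized counts in the Dermo1 controls and 39.3, 83.4 and 91.9 in the mutants (1.07 ± 0.31, limma, adjusted p = 0.324), with mutant 1 the lowest mutant.

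Of the 18 tested Rab6 regulators and effectors, 3 had an unadjusted p under 0.05 with mutants higher in the Dermo1 experiment and 0 with mutants lower, with a median of 0.05. C030046E11Rik (Ric1), part of the exchange factor of Rab6, differed by 0.13 ± 0.05 and Rabgap1, a GTPase-activating protein for Rab6, by 0.12 ± 0.04 (limma, adjusted p = 0.440 and 0.375). Erc2, a scaffold of presynaptic active zones, stood at 69.1, 74.3 and 66.4 in the controls and 80.7, 141 and 117 in the mutants (0.65 ± 0.20, limma, adjusted p = 0.351). In the Vangl experiment 6 of the 18 had an unadjusted p under 0.05 with mutants higher.

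Among 13 kinesin-3 cargo and regulator genes 1 passed an unadjusted p of 0.05 in the Dermo1 experiment. It was Ppfia2, a liprin of presynaptic sites, at 47.1, 44.2 and 73.3 normalized counts in the controls and 84.7, 97.3 and 113 in the mutants (0.86 ± 0.21, limma, adjusted p = 0.271). Ppfia3 differed by 0.28 ± 0.16 and Kif1c, a broadly expressed kinesin-3, by -0.08 ± 0.04. Of 14 other transport kinesins 0 passed in the Dermo1 experiment and 5 in the Vangl experiment, all with mutants higher, and the kinesin-2 genes Kif3a, Kif3c and Kifap3 differed by 0.08, 0.13 and 0.09 in the Dermo1 experiment. Of 22 dynein and dynactin genes 2 passed with mutants higher in the Dermo1 experiment. These were Dync1i1, the neuronal dynein intermediate chain, at 4.01, 7.03 and 7.93 against 11.1, 22.8 and 19.97 normalized counts (1.36 ± 0.41, limma, adjusted p = 0.351), and Pafah1b1 (Lis1), a dynein regulator (0.11 ± 0.04, adjusted p = 0.421), while Dctn3, a dynactin subunit, differed by -0.13 ± 0.07. In the Vangl experiment 1 dynein or dynactin gene passed with mutants higher and 5 with mutants lower. In the Sox9 experiment 0 genes of the 5 lists passed.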

How the data were processed

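RNA from whole embryonic lungs was sequenced by the authors, whose processing notes name Trim Galore, HISAT2, featureCounts, DESeq2 and mm10, with versions not given in the sources used here. The authors deposited 1 table per experiment with normalized counts per gene and library (signal: reads divided by a size factor). The deposited columns of their own comparisons (log2 fold change, p-value) were not used. Every value was a whole multiple of its column's step within 0.05 reads, so reads were recovered for the count tests; in 11 of the 18 columns the step lies so close to 1 that this cannot be distinguished from values near whole numbers.

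Each table was normalized separately and tested alone: limma 3.58.1 with trend on log2(value + 1), genes with at least 10 in at least 3 of 6 libraries, Benjamini-Hochberg, threshold 0.05, two-sided. A fold change on this scale understates that of low genes. Alternatives were edgeR 4.0.16 (quasi-likelihood), DESeq2 1.42.0, TMM scaling, pseudocounts 0.5 and 5, no filter, a replicate block, all 18 libraries in 1 fit, removal of the length trend (loess) and leaving out each library. Scripts were tested on simulated data. Per kb values use the union of GENCODE M21 basic exons (98.3% of rows matched). Sequences came from GENCODE M21 transcripts and RefSeq promoters, with Biopython 1.88 alignment. The strand setting of counting was not given.

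The 7 genes and the lists were chosen with earlier results of these data known. The genes named are the 7, the 3 genes of each partner list with the smallest unadjusted p in the Dermo1 experiment, 5 neuron markers, and the genes most correlated with each neuronal gene (5 for Rab6b, 3 for the others), of which 2 are not reported here; Fmod, Nkx2-1, Tbx4 and Nkx2-2 were named after their values were seen. The TGACGTCA motif was picked out of 7 after the search. No columns belonged to other series.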

Additional observations from a re-analysis of the deposited data

How the results depend on the processing

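On leaving out each library, the log2 fold changes in the Dermo1 experiment ran from 1.37 to 1.61 for Rab6b, 1.42 to 2.01 for Kif5a, 1.26 to 1.67 for Kif5c and 0.40 to 0.68 for Kif1a, and 104 of 105 Dermo1 alternatives of the 7 genes stayed within 1 SD of the value given. The alternative that moved was Kif1b with the length trend removed, at 0.0036. The number of genes called in the Dermo1 experiment was 2 (1 of the 7), but 100 (4) by DESeq2, 0 (0) with all 18 libraries in 1 fit, and between 0 and 52 (0 to 4) on leaving out each library. The call of Rab6b was lost without Dermo1 control 1, control 2 or mutant 3. As the genes were chosen on this contrast, nothing is read from their calls in it, here or with the replicate block below. In the Sox9 experiment the number called was 0, but 9 by DESeq2 and 0 to 13 on leaving out each library, with 13 without mutant 1. In the Vangl experiment it was 1 (0 of the 7), but 20 by DESeq2, 3183 (1, Kif1b) with all 18 libraries in 1 fit, and 0 to 6180 (0 to 5) on leaving out each library, the highest without control 2. The cause was not tested.

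Directions turned for small differences. In the Sox9 experiment leaving out a library gave -0.11 to 0.13 for Kif5b, -0.17 to 0.052 for Kif1b and -0.56 to 0.034 for the ratio of Kif1a to Kif1b, and in the Vangl experiment -0.16 to 0.24 for that ratio. Removing the length trend gave -0.0098 for Kif5b, -0.13 for Kif1b and -0.037 for the ratio of Rab6b to Rab6a in the Vangl experiment.

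The deviations of same-numbered control and mutant libraries correlated at -0.22 to 0.30. Each deviation is from a mean of only 3 libraries, so these values cannot settle whether the numbers pair the libraries. With a replicate block the number of genes called was 16 (2 of the 7, Rab6b and Kif5c) in the Dermo1, 0 in the Sox9 and 0 in the Vangl experiment. With 3 libraries a group, the exact permutation test cannot go below 0.1, and low genes such as Kif5a in the Vangl controls carry most counting error.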
